A study of Mus musculus with 4 samples.

Results

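Amino acid transporters are the membrane proteins that bring amino acids into cells or exchange them across the plasma membrane. The set described here holds 8 of the 23284 gene symbols in the deposited tables: Slc7a10, Slc7a5, Slc7a6, Slc7a11, Slc3a2, Slc1a5, Slc38a1 and Slc38a2. They were named as a family of carriers, with Slc7a10 picked because it was far lower in fat than in spleen, so the tissue difference is given as a description, without a p-value for any of the 8.

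Treg cells, the regulatory T cells that express FOXP3 and hold immune responses in check, were sorted from epididymal fat (eWAT, a visceral depot) and from spleen of C57BL/6 mice aged 12 to 13 months. There were 4 RNA sequencing libraries, 1 each from PPARg-2KR eWAT, WT eWAT, PPARg-2KR spleen and WT spleen, called here 2KR eWAT, WT eWAT, 2KR spleen and WT spleen. PPARg-2KR is an altered PPARG, a nuclear receptor found in Treg cells of fat, known from other work as a mimic of the deacetylated protein with lysines replaced by arginine. The sources used here do not give the number of animals behind each library, the sort gates or whether both chromosomes carried the allele. With 1 library per group, the tissue comparison sets 2 eWAT libraries, 1 of each genotype, against 2 spleen libraries, and its spread therefore includes the genotype difference. The 2 libraries of a tissue differ in genotype and so came from different animals. Whether the eWAT and spleen libraries of a genotype came from the same animals is not given. A p-value here covers the spread between the libraries of a tissue, in which animal, genotype and technical differences cannot be told apart.

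T cells take up large neutral amino acids, glutamine, serine and cystine when they grow and divide, and this uptake feeds protein synthesis, glutathione and the nutrient sensor mTORC1. SLC3A2 (CD98, 4F2hc) is a heavy chain that carries several light chains to the cell surface. Among those light chains are SLC7A5 (LAT1, large neutral amino acids), SLC7A6 (y+LAT2, arginine in exchange for glutamine), SLC7A11 (xCT, cystine in exchange for glutamate) and SLC7A10 (Asc-1, small neutral amino acids and D-serine). SLC1A5 (ASCT2) exchanges glutamine and other neutral amino acids, while SLC38A1 (SNAT1) and SLC38A2 (SNAT2) take them up together with sodium. Slc7a10 is also known as a surface marker of white adipocytes.

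RefSeq promoter sequences (build GRCm38.p6) were found for 5 of the 8 genes, and those of the 3 genes furthest apart between tissues are shown, as the 250 bases before the annotated start, 5′ to 3′ on the gene's strand. Capitals mark matches to 2 motifs, searched on both strands. TGATGNAA is the core of the amino acid response element bound by ATF4, and TGACNNNGC is the core of the antioxidant response element bound by NRF2. The first is on the plus strand of chromosome 7 at chr7:35186135-35186384, the second on the minus strand at chr3:50443614-50443863 and the third on the minus strand at chr15:96699729-96699978.
Slc7a10: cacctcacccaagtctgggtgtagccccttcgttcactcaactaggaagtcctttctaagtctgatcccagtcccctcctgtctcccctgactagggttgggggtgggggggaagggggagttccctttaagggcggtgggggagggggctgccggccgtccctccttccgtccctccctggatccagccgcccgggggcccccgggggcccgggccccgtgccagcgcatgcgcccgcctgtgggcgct
Slc7a11: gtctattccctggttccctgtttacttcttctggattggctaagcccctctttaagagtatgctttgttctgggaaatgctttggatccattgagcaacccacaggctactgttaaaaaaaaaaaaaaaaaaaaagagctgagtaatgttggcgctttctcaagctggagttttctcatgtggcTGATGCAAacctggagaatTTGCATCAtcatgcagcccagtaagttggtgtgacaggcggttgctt
Slc38a2: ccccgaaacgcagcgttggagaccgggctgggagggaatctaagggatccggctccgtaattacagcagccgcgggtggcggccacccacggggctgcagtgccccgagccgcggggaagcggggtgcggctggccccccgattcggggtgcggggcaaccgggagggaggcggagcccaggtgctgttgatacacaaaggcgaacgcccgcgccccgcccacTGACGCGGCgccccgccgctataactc
The Slc7a11 window held 2 matches to TGATGNAA on opposite strands, from 66 to 59 and from 47 to 40 bases before the start. The other member windows held none, and 3.45% of all 32851 promoters of this length held at least 1. The Slc38a2 window held 1 match to TGACNNNGC, from 27 to 19 bases before the start, as did 1 of the 2 Slc7a6 windows, against 10.2% of all promoters. Of the printed windows, that of Slc7a10 was 69.6% G and C, that of Slc7a11 43.2% and that of Slc38a2 72.0%, against a median of 52.4% over all promoters. A match is a string of letters and no evidence of binding.

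The labelled cell type was checked against its markers. Foxp3 stood at 803 CPM (counts scaled by library total and TMM factor) in 2KR eWAT, 1160 in WT eWAT, 1297 in 2KR spleen and 1407 in WT spleen. All 6 Treg and T cell markers were detected in every library, and 1 was called higher in eWAT and 2 lower. Cd3e stood at 573 and 672 CPM in 2KR and WT eWAT against 1159 and 1385 CPM in 2KR and WT spleen. In the same order Cd4 stood at 400.4 and 412 against 657 and 637 CPM, and Ctla4 at 1877 and 2419 against 748 and 774 CPM. Markers of other cells were present and mostly higher in eWAT. The 8 macrophage and monocyte markers summed to 1568 and 1254 CPM in 2KR and WT eWAT, against 82.5 and 119 CPM in 2KR and WT spleen, and all 8 were called higher in eWAT. The 6 B and plasma cell markers summed to 3149 and 2291 CPM in 2KR and WT eWAT, against 144 and 156 CPM in 2KR and WT spleen. Most of the eWAT sums came from Igj, at 2973 and 2184 CPM in 2KR and WT. Of the 6, 4 were called higher in eWAT and 1 lower. Cd79b stood at 42.1 and 31.3 CPM in 2KR and WT eWAT against 48.7 and 58.3 CPM in 2KR and WT spleen. The 5 dendritic cell markers summed to 540.1 and 345 CPM in eWAT against 7.79 and 12.0 CPM in spleen, and the 7 fibroblast and mesothelial markers to 224 and 530.2 CPM against 4.13 and 7.502 CPM, each pair with 2KR first. The 5 endothelial markers summed to 158 to 257 CPM in every library. Pecam1, which T cells also express, gave nearly all of this in spleen, at 190 and 172 CPM in 2KR and WT. In 2KR and WT eWAT it stood at 112 and 63.4 CPM. Of the 5, 4 were called higher in eWAT and 1 lower. Cav1 stood at 103 and 59.3 CPM in 2KR and WT eWAT with 0 reads in both spleen libraries. The 7 mast cell and innate lymphoid markers summed to 79.9 and 33.1 CPM in 2KR and WT eWAT and to 2.75 and 2.18 CPM in 2KR and WT spleen, and the 6 erythroid markers to under 10 CPM in each library. The 8 adipocyte markers summed to 125 to 145 CPM in every library, mostly from Pnpla2, a lipase that many cells express, and of the 4 that passed the filter 2 were called higher in eWAT and 1 lower. Lep, the leptin gene, stood at 12.8 and 8.12 CPM in 2KR and WT eWAT against 0.524 and 2.02 CPM in 2KR and WT spleen. Adipoq, the adiponectin gene that defines adipocytes, had 11 reads in 2KR eWAT, 0 in WT eWAT, 8 in 2KR spleen and 3 in WT spleen. Read totals were 8315569 in 2KR eWAT, 11186660 in WT eWAT, 15993889 in 2KR spleen and 13250590 in WT spleen, and 3 reads correspond to 0.312, 0.277, 0.196 and 0.242 CPM in these libraries.

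Slc7a10 was close to silent in fat Treg cells and well expressed in spleen Treg cells of both genotypes. The gene lies on chromosome 7 (35971404 to 35986130, mm9). It had 17 reads in 2KR eWAT and 7 in WT eWAT, against 580 in 2KR spleen and 827 in WT spleen, which is 1.77 and 0.646 CPM in eWAT against 38.0 and 66.7 CPM in spleen. The eWAT and spleen libraries did not overlap. Within the 2KR mice the CPM was 21.5-fold lower in eWAT than in spleen, and within the WT mice 103-fold lower. With a prior count of 2, which draws ratios of low counts towards 0 and is used for all log2 ratios below, the log2 ratio was −4.30 in 2KR mice and −6.36 in WT mice. The counting intervals, made without a prior count, were −5.21 to −3.73 and −8.01 to −5.64. The fitted log2 fold change was −5.45 (SE 0.41), and 1 of the 16488 genes tested had a lower one.

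In FPKM, which is scaled by transcript length and library size, Slc7a10 stood at 0.758 in 2KR eWAT and 0.150 in WT eWAT, against 20.6 in 2KR spleen and 34.2 in WT spleen. The interval that Cufflinks gave for WT eWAT, 0 to 0.324, included 0. In WT spleen Slc7a10 stood next to Slc38a2, at 34.2 FPKM (31.8 to 36.6) against 37.4 (35.8 to 39.0), and these intervals overlapped. The locus overlaps that of Lrp3, a lipoprotein receptor family gene, by 178 bases in the deposited tables. Lrp3 stood at 1.77 and 1.02 CPM in 2KR and WT eWAT and at 1.38 and 1.45 CPM in 2KR and WT spleen. Whether reads were assigned by strand is not given, so part of the few Slc7a10 reads in eWAT could not be told apart from reads of Lrp3.

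The 5 genes named here had the pattern closest to Slc7a10 over the 4 libraries, by the root mean square difference of centred log2 CPM among 10322 other genes with at least 10 CPM in a library. These were Dtx1 (0.49), a Notch pathway ubiquitin ligase, Slc40a1 (0.63), the iron exporter ferroportin, Capn3 (0.63), a calcium-dependent protease, Gpr83 (0.64), a receptor known in Treg cells, and Serpina9 (0.65), a serine protease inhibitor. Dtx1 stood at 4.27 and 3.32 CPM in 2KR and WT eWAT, against 220.2 and 217 CPM in 2KR and WT spleen. The likeness rests on 4 values per gene and is a description of these libraries.

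Of the other members 3 were higher in both eWAT libraries than in both spleen libraries. Slc38a2, the SNAT2 carrier (chromosome 15, 96517823 to 96530129, mm9), had 6736 reads in 2KR eWAT and 5258 in WT eWAT, against 4040 in 2KR spleen and 2410 in WT spleen. This is 701 and 485 CPM in eWAT against 265 and 194 CPM in spleen, a ratio of 2.65-fold within 2KR mice (log2 1.40, interval 1.35 to 1.46) and of 2.50-fold within WT mice (1.32, 1.25 to 1.39). The level differed 1.44-fold between genotypes in eWAT, less than between tissues in either genotype.

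Slc3a2, the heavy chain (chromosome 19, 8781372 to 8797859, mm9), stood at 281 CPM in 2KR eWAT and 307 CPM in WT eWAT, against 202 CPM in 2KR spleen and 208 CPM in WT spleen. Both tissue ratios were modest, at a log2 of 0.48 (0.41 to 0.56) within 2KR mice and 0.56 (0.49 to 0.64) within WT mice. Of its 2 annotated transcripts, NM_008577 carried most of the FPKM, with 94.4% in 2KR eWAT, 96.7% in WT eWAT, 95.7% in 2KR spleen and 90.4% in WT spleen. The fitted tissue log2 fold change was 0.52 for Slc3a2 (SE 0.20) and 1.37 for Slc38a2 (SE 0.26).

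Slc7a11, the cystine carrier (chromosome 3, 50168858 to 50247535, mm9), gave different answers in the counts and in the FPKM. It had 62 reads in 2KR eWAT and 52 in WT eWAT, against 7 in 2KR spleen and 4 in WT spleen, or 6.45 and 4.80 CPM against 0.458 and 0.323 CPM. By these counts its log2 ratio of eWAT over spleen was 3.41 within 2KR mice (interval 2.69 to 5.19) and 3.34 within WT mice (2.45 to 5.82), and the plain CPM ratios, without the prior count, were 14.1 and 14.9. The FPKM were nearly level, at 1.51 and 1.53 in 2KR and WT eWAT against 1.03 and 1.13 in 2KR and WT spleen, a log2 ratio of 0.56 within 2KR mice and 0.44 within WT mice.

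The counts of Slc7a11 were low for its FPKM. The FPKM and transcript length imply 114 reads in 2KR eWAT and 154 in WT eWAT, against 146 in 2KR spleen and 133 in WT spleen, when scaled by the median gene with 1 transcript. The counted reads were 54.5% and 33.9% of these in 2KR and WT eWAT, and 4.81% and 3.02% in 2KR and WT spleen. Among genes with 1 transcript and at least 0.5 FPKM, 1.60% in 2KR spleen and 1.31% in WT spleen had a lower share. For Slc7a5, Slc7a6, Slc1a5 and Slc38a2 the counted reads were 96.5 to 110% of those implied in every library. For Slc7a10 they were 93.9% and 97.3% in 2KR and WT spleen, and 141% in 2KR eWAT, with 17 reads counted and 12.1 implied. The size of the Slc7a11 difference between tissues therefore depends on which deposited measure is read, and the cause was not tested.

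**Figure D1:**
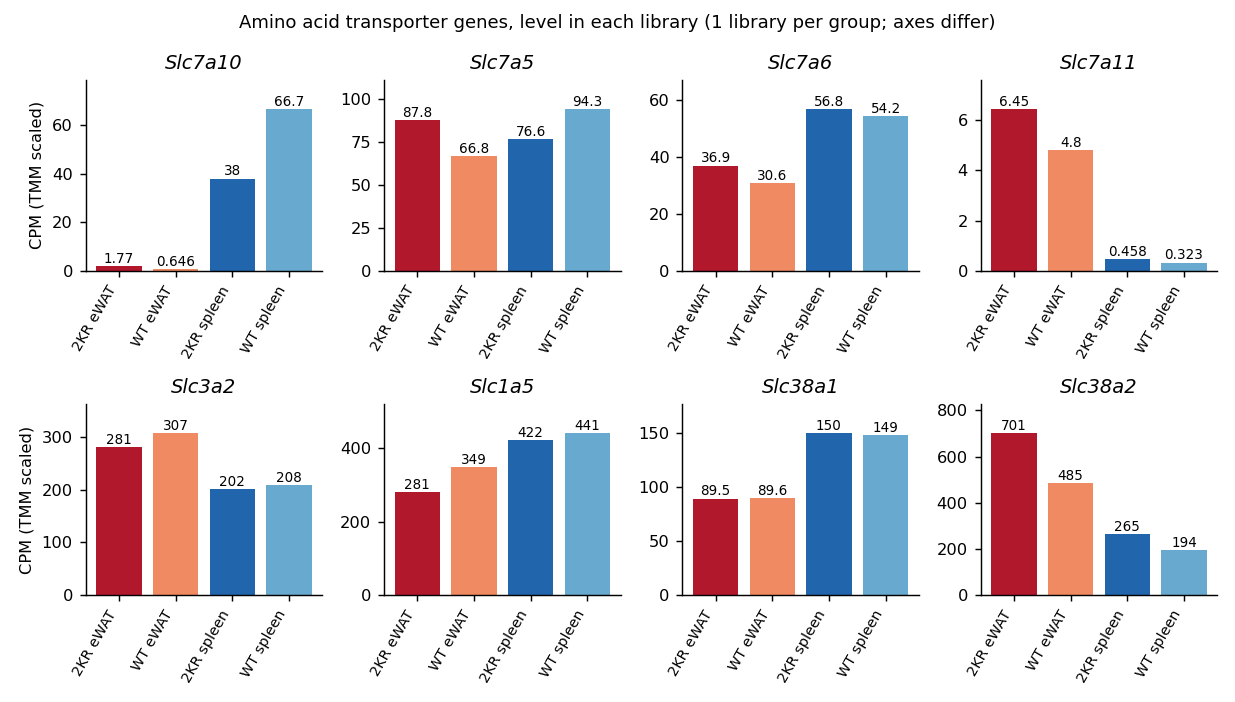
Level of each of the 8 transporter genes in each library, in CPM on TMM-scaled totals, with 1 bar per library and a separate linear axis from 0 for each gene. Slc7a10 stands at 38.0 and 66.7 CPM in 2KR and WT spleen and near 0 in both eWAT libraries, while Slc38a2, Slc3a2 and Slc7a11 are higher in both eWAT libraries.

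**Figure D2:**
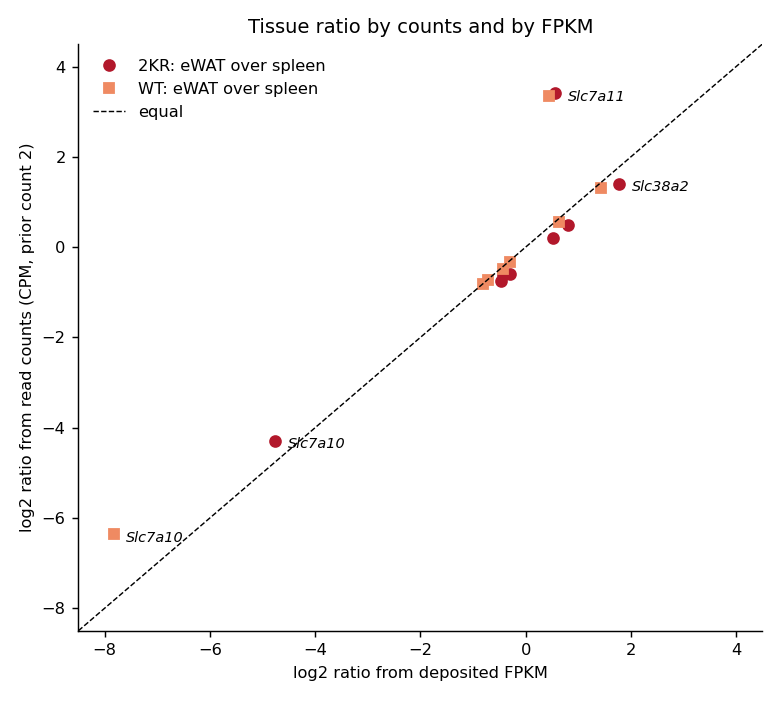
Log2 ratio of eWAT over spleen for each transporter gene within 2KR mice (circles) and WT mice (squares), from deposited FPKM on the horizontal axis and from read counts on the vertical axis, with a dashed line of equal values. Slc7a11 lies far above the line, at 3.41 and 3.34 by counts and 0.56 and 0.44 by FPKM in 2KR and WT mice, and the Slc7a10 points lie far to the lower left.

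Slc1a5, Slc38a1 and Slc7a6 were lower in both eWAT libraries than in both spleen libraries, by less than 2-fold. The glutamine carrier Slc1a5 (chromosome 7, 17366695 to 17383623, mm9) stood at 281 and 349 CPM in 2KR and WT eWAT against 422 and 441 CPM in 2KR and WT spleen. Its log2 ratio of eWAT over spleen was −0.59 within 2KR mice and −0.34 within WT mice. Slc38a1 (chromosome 15, 96401849 to 96473344, mm9) stood at 89.5 and 89.6 CPM in 2KR and WT eWAT against 150.1 and 149 CPM in 2KR and WT spleen, so that the genotypes were nearly equal within each tissue. Its 3 annotated transcripts each held between 21.7% and 46.1% of the gene's FPKM in every library.

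Slc7a6 (chromosome 8, 108692775 to 108722604, mm9) stood at 36.9 and 30.6 CPM in 2KR and WT eWAT against 56.8 and 54.2 CPM in 2KR and WT spleen. The fitted tissue log2 fold change was −0.45 for Slc1a5 (SE 0.22), −0.74 for Slc38a1 (SE 0.18) and −0.72 for Slc7a6 (SE 0.20). Slc7a5, the LAT1 light chain (chromosome 8, 124405046 to 124431586, mm9), was the member whose tissues overlapped. It stood at 87.8 and 66.8 CPM in 2KR and WT eWAT, against 76.6 and 94.3 CPM in 2KR and WT spleen, and its fitted log2 fold change was −0.14 (SE 0.20).

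All 8 members passed the expression filter. In the tissue test (edgeR, adjusted p under 0.05) 3 of the 8 were called higher in eWAT and 3 lower, where 33.7% of the 16488 genes tested were called higher and 23.2% lower, or 56.9% in either direction. Slc1a5 and Slc7a5 were the members not called. Since Slc7a10 was picked on this contrast, nothing is read from these counts. Without WT spleen the counts were 1 higher and 1 lower, without 2KR spleen 2 higher and 1 lower, and limma on log2(FPKM + 1) gave 2 higher and 1 lower. The members' median fitted log2 fold change was −0.30, against 0.11 over all genes tested. Over genes with a mean of at least 5 CPM, a level that all members but Slc7a11 reached, the median was −0.32. At that level 16.4% of genes were called higher and 35.3% lower. The eWAT and spleen libraries did not overlap for 7 of the 8 members, 3 above and 4 below, where 81.8% of all genes tested did not, 44.3% above and 37.5% below. Total count scaling moved the median fitted tissue log2 fold change of all genes by 0.16, and the fitted value of Slc7a5 was 0.04 under it. The macrophage, dendritic, B cell and fibroblast marker sums given above were higher in the same eWAT libraries, and their part in the levels of the transporter genes was not tested. In such bulk libraries, fewer cells that express a gene and less RNA per cell cannot be told apart.

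The order of the members by FPKM differed between tissues. In spleen Slc1a5 stood first, at 146 FPKM in 2KR spleen and 151 in WT spleen, followed by Slc3a2 at 79.2 and 79.8 and Slc38a2 at 52.5 and 37.4. Slc38a2 stood first in 2KR eWAT at 179.5 FPKM, ahead of Slc3a2 at 139 and Slc1a5 at 119.7. Slc3a2 and Slc1a5, at 124 and 123 FPKM, had overlapping intervals at the top in WT eWAT, with Slc38a2 next at 102. Slc7a10 was last in both eWAT libraries, and in the middle of the order in both spleen libraries. In 2KR spleen its interval (18.9 to 22.3) overlapped those of its neighbours Slc7a5 (20.1 to 22.6) and Slc38a1 (18.5 to 20.1).

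The mix of light chains that can pair with SLC3A2 differed accordingly. Over 6 such light chains (the 4 members with Slc7a7 and Slc7a8), FPKM summed to 52.5 in 2KR eWAT and 35.2 in WT eWAT, against 59.7 in 2KR spleen and 76.4 in WT spleen. Slc7a10 made up 1.44% and 0.428% of that sum in 2KR and WT eWAT, and 34.6% and 44.8% in 2KR and WT spleen. Slc7a5 made up 58.1% and 54.5% in 2KR and WT eWAT, against 35.8% and 33.7% in 2KR and WT spleen, and had the largest share in every library but WT spleen, where Slc7a10 did. Slc7a8 (LAT2), another carrier of neutral amino acids, stood at 4.16 and 4.35 FPKM in 2KR and WT eWAT and at 0.347 and 0.0380 FPKM in 2KR and WT spleen. The heavy chain exceeded the light chain sum by 2.65-fold in 2KR eWAT and 3.53-fold in WT eWAT, against 1.33-fold in 2KR spleen and 1.04-fold in WT spleen. Slc7a10 was picked for its fall in eWAT, and that fall by itself lowers the sum and raises the other shares and the heavy chain ratio. Nothing further is read from these shares and ratios. In FPKM itself, Slc7a5 stood at 30.5 and 19.2 in 2KR and WT eWAT against 21.3 and 25.7 in 2KR and WT spleen. These are transcript levels and do not measure protein at the surface.

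**Figure D3:**
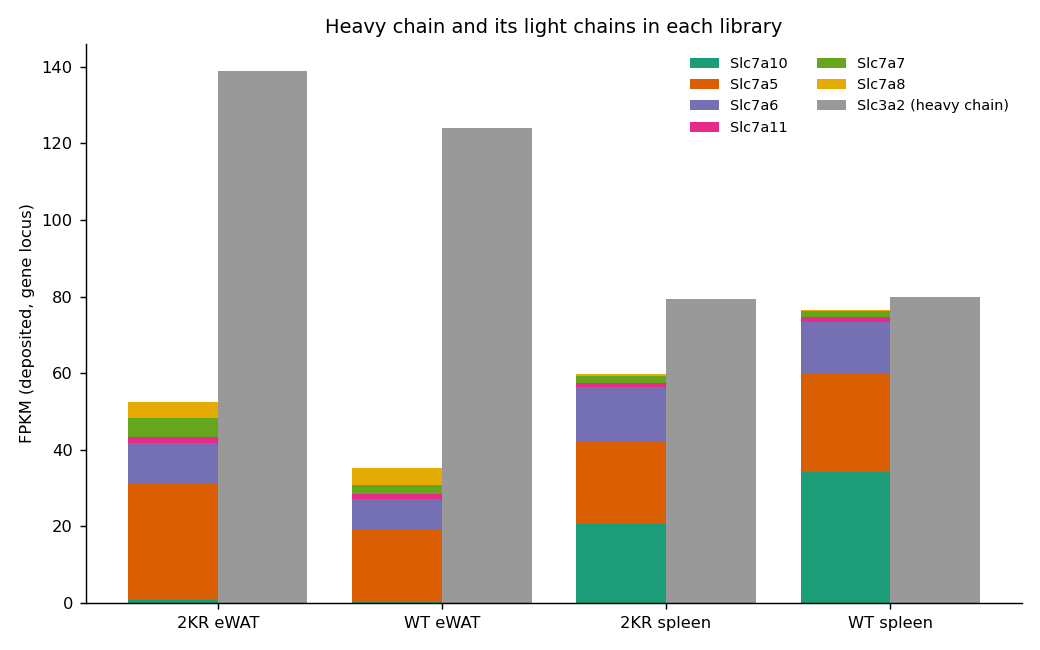
Deposited FPKM of 6 light chain genes (stacked bars) and of the heavy chain gene Slc3a2 (grey bars) in each library, with 1 library per group. The Slc7a10 segment is large in both spleen libraries and barely visible in eWAT, where the grey bar stands 2.65 and 3.53 times as high as the light chain stack in 2KR and WT.

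Between genotypes, Slc38a2 was higher in the 2KR library of both tissues. Its genotype ratio (2KR over WT, log2) stood at 0.53 in eWAT (701 against 485 CPM, counting interval 0.48 to 0.58) and 0.44 in spleen (265 against 194 CPM, 0.37 to 0.52). Of 12307 genes with at least 5 CPM in a library, 4.47% were above 0 in both tissues with both intervals clear of 0, and 18.2% had the same sign, above or below. In the test of a genotype effect common to both tissues, the log2 fold change of Slc38a2 was 0.49 (SE 0.24) with an edgeR p of 0.0503 before and 0.9998 after adjustment. None of the 8 members passed in that test, in which 11 genes (0.0667%) were called, 0 of them higher, while 777 of 16488 had an unadjusted p under 0.05. DESeq2 called 2 lower and 0 higher. The other members had fitted log2 fold changes between −0.37 (Slc7a10, SE 0.32) and 0.45 (Slc7a11, SE 0.86), each with the same adjusted p of 0.9998.

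Slc7a10 and Slc7a5 differed between genotypes in opposite directions in the 2 tissues. For Slc7a10 this log2 ratio stood at 1.25 in eWAT (17 against 7 reads, interval 0.11 to 2.97) and −0.81 in spleen (580 against 827 reads, −0.97 to −0.66), a difference of 2.06 between tissues. The eWAT value rests on 24 reads in all, and by FPKM it was 2.33. For Slc7a5 the ratio was 0.39 in eWAT (0.25 to 0.54) and −0.30 in spleen (−0.42 to −0.18), a difference of 0.69. With 1 library per group neither difference could be tested, where 47.3% of the 12307 genes had ratios of opposite sign and 13.8% also had both intervals clear of 0.

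On TMM-scaled counts the glutamine exchanger Slc1a5 was lower in the 2KR eWAT library, with a log2 ratio of −0.31 (281 against 349 CPM, −0.39 to −0.24). That eWAT ratio was −0.06 under total count scaling and −0.04 by FPKM. In spleen Slc1a5 was near even, at −0.06 (422 against 441 CPM, −0.11 to −0.01). Slc7a6 was at 0.27 in eWAT (0.05 to 0.49) and 0.07 in spleen (−0.08 to 0.22). Slc38a1 was level in both tissues, at −0.002 in eWAT (−0.14 to 0.13) and 0.01 in spleen (−0.08 to 0.10). Its eWAT ratio was 0.25 under total count scaling and 0.27 by FPKM. Slc3a2 was at −0.13 in eWAT (−0.20 to −0.05) and at 0.13 there under total count scaling. Slc7a11 was at 0.41 in eWAT (−0.13 to 0.99) and 0.35 in spleen (−1.47 to 2.73), so that its few reads did not resolve a genotype difference.

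Total count scaling raised the median log2 ratio of all genes in eWAT by 0.25 and in spleen by 0.03. Relative to that median, Slc3a2 lay at −0.05 in eWAT under either scaling, Slc1a5 at −0.24, Slc7a5 at 0.47 and Slc38a2 at 0.61. Of the 8 members 1, Slc7a10, had a log2 ratio past 1 in size in eWAT and 0 in spleen, where 7.69% and 6.72% of the 12307 genes did. In eWAT 5.35% of the genes were at 1 or higher and 2.33% at −1 or lower, and in spleen 1.01% and 5.71%. The ratio was above 0 for 5 of the 8 members in eWAT and for 4 in spleen, against 44.1% and 40.8% of all genes. The members' median log2 ratio was 0.33 in eWAT and −0.02 in spleen, against −0.08 and −0.07 over all genes. In the 2KR eWAT library the macrophage, dendritic, B cell, endothelial and mast cell marker sums were higher than in the WT eWAT library and the fibroblast sum was lower. The mast cell protease gene Tpsb2 had 175 reads in 2KR eWAT and 4 in WT eWAT, and Mcpt4 had 102 and 0. The part of these cells in the ratios was not tested.

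**Figure D4:**
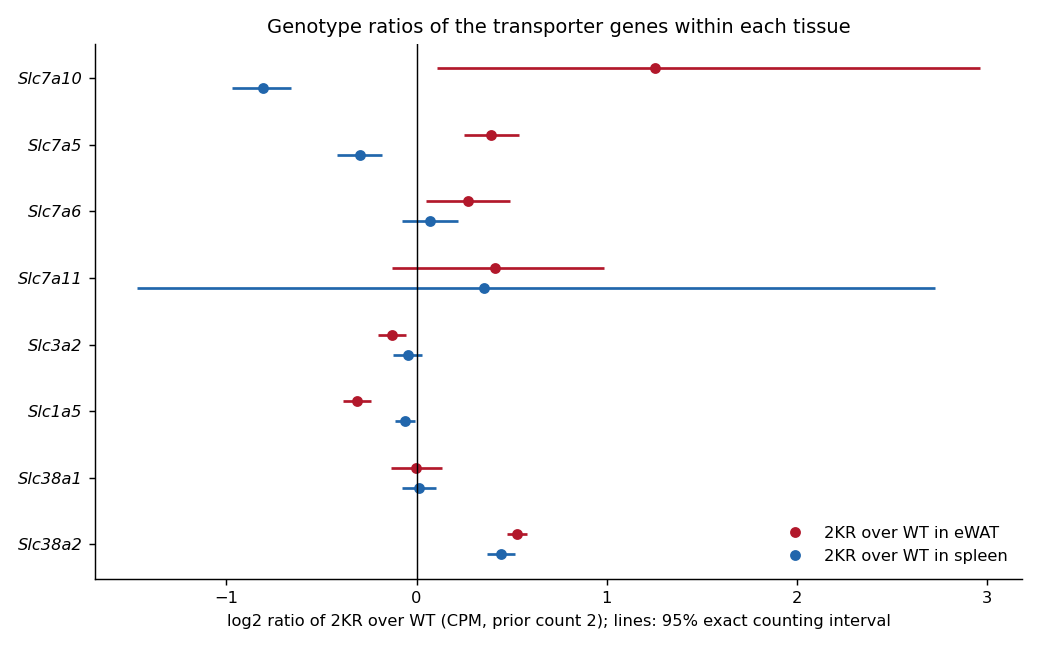
Log2 ratio of 2KR over WT for each transporter gene in eWAT (red) and spleen (blue), with 95% exact counting intervals as lines, which hold no animal-to-animal spread. Slc38a2 lies above 0 in both tissues, at 0.53 in eWAT and 0.44 in spleen, and Slc7a10 and Slc7a5 lie on opposite sides of 0 in the 2 tissues.

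Other amino acid carriers were set beside the 8 members, in 5 lists with 64 genes, of which 63 were in the files and 54 were tested. Of these, 23 were higher in eWAT, 5 lower and 26 did not pass (edgeR, adjusted p under 0.05), where 33.7% of all genes tested were higher and 23.2% lower. The macrophage, dendritic, B cell and fibroblast marker sums given above were higher in the same eWAT libraries, and their part in these counts was not tested. Most of the higher carriers were weakly expressed. Of 26 carriers with a mean under 5 CPM over the 4 libraries 20 were higher and 0 lower, against 65.5% and 1.03% of all 5810 genes at that level, and of the 28 carriers above it 3 were higher and 5 lower, against 16.4% and 35.3% of 10678 genes. Of those 3, Slc7a8 stood at 15.7 and 18.6 CPM in 2KR and WT eWAT against 1.51 and 0.323 CPM in 2KR and WT spleen (log2 fold change 4.17, SE 0.55). Slc16a10, a carrier of aromatic amino acids, and Slc15a3, a lysosomal carrier of peptides and histidine, were the others, with log2 fold changes of 2.13 and 2.15. Slc7a8 had 23 and 4 reads in 2KR and WT spleen and could pass the filter through eWAT alone, so its direction is not read as support.

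By family, 5 of 9 SLC7 and SLC3 genes tested were higher (among them Slc7a8, Slc7a14, Slc7a13 and Slc7a2), 4 of 5 SLC1 genes (among them Slc1a2, Slc1a3 and Slc1a4), 4 of 8 SLC38 genes (among them Slc38a4, Slc38a11 and Slc38a5) and 8 of 15 genes of SLC6, SLC16, SLC36 and SLC43 (among them Slc6a19, Slc6a9, Slc6a18 and Slc36a2), with 0 lower in each of these lists. Most of these higher genes had a mean under 5 CPM, a level at which 65.5% of all genes tested were higher and 1.03% lower. Genes of such low level could pass the filter through eWAT alone, so their direction is not read as support. Slc1a2 and Slc1a3, glutamate carriers best known from glia, stood at 10.4 and 9.57 CPM in 2KR eWAT and at 4.71 and 5.08 CPM in WT eWAT. Their spleen levels were 0.327 and 0.393 CPM in 2KR and 1.13 and 2.02 CPM in WT. Mitochondrial and lysosomal carriers gave 2 higher (Slc15a3 and Sfxn5) and 5 lower of 17. The glutamate carrier Slc25a22 fell to 26.1 and 31.3 CPM in 2KR and WT eWAT, against 60.2 and 60.3 CPM in 2KR and WT spleen (log2 fold change −1.07, SE 0.20, adjusted p = 0.00084), and Slc25a29, a carrier of basic amino acids, had −1.85. Sfxn1, a mitochondrial serine carrier, fell by 0.92 on the log2 scale. Without 2KR eWAT 11 carriers were higher, with 2 of the SLC7 and SLC3 genes, 1 of the SLC38 genes, 4 of the SLC6 to SLC43 genes and 1 of the mitochondrial and lysosomal ones (0 without WT eWAT), and 2 SLC1 genes were higher without WT spleen. Without WT eWAT 1 SLC38 gene was lower, and the 5 lower carriers became 9 without WT eWAT, 3 without 2KR spleen, 2 without WT spleen and 3 under total count scaling.

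Genes that respond to or use the carried amino acids were tested in 3 lists, with 15 of 73 higher and 23 lower in eWAT, where 33.7% of all genes tested were higher and 23.2% lower. Among the 65 with a mean of at least 5 CPM, 13.8% were higher and 35.4% lower, close to the 16.4% and 35.3% of all genes at that level, and 6 of the 8 below it were higher, against 65.5% of all genes there. In the amino acid response the kinase GCN2 and the factor ATF4 induce carriers and synthesis enzymes when amino acids run short. Its list gave 8 higher and 8 lower of 26, beside the 33.7% and 23.2% of all genes tested. The list's median log2 fold change was −0.26, against 0.11 over all genes tested. Over genes with a mean of at least 5 CPM, as most of the list had, the median was −0.32. Atf4 rose to 392 and 507 CPM in 2KR and WT eWAT, against 245 and 239 CPM in 2KR and WT spleen (log2 fold change 0.89, edgeR adjusted p = 0.0048), and Asns, asparagine synthetase, rose by 1.07. Cebpb, a partner of ATF4, rose by 1.73. Chac1 (a glutathione-degrading enzyme), Stc2, Nupr1 and Vldlr had log2 fold changes of 4.74, 4.48, 4.05 and 2.95. They had 93 reads or fewer in any library, with 0 and 2 for Chac1 in 2KR and WT spleen, and genes of such low level could pass the filter through eWAT alone, so their direction is not read as support. The serine synthesis enzymes Phgdh and Psat1 and the mitochondrial serine enzyme Shmt2 fell, by 0.98, 0.99 and 1.25, and Ddit4, an inhibitor of mTORC1, fell by 2.32.

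Amino acid sensing genes upstream of mTORC1 gave 2 higher and 9 lower of 25, all with a mean of at least 5 CPM, a level at which 16.4% of all genes were higher and 35.3% lower. Sesn3, Wdr24 and Rragd fell by 1.19, 1.17 and 1.05, and Fnip2 rose by 2.75. Fnip2 had 29 and 9 reads in 2KR and WT spleen and could pass the filter through eWAT alone, so its direction is not read as support. Sesn3 encodes a sestrin, Wdr24 a subunit of the GATOR2 complex and Rragd a Rag GTPase that brings mTORC1 to the lysosome. Genes of amino acid use gave 5 higher and 6 lower of 22, beside the 33.7% and 23.2% of all genes tested. At a mean of at least 5 CPM, as most of the list had, these shares were 16.4% and 35.3%. Got1, the cytosolic aspartate aminotransferase, rose to 283 and 323 CPM in 2KR and WT eWAT, against 76.5 and 81.9 CPM in 2KR and WT spleen (log2 fold change 1.94, SE 0.20, edgeR adjusted p = 7.3e-06). Gldc, of the glycine cleavage system, had 3.44 and Gls2, a glutaminase, 2.19, both from low levels in spleen. Both could pass the filter through eWAT alone, so their direction is not read as support. Shmt1, the cytosolic serine enzyme, fell by 1.51. Without 2KR spleen 9 genes of the 3 lists were higher and 13 lower, and without WT spleen 10 were lower. With either spleen library left out, the response list had 4 lower, and the sensing list had 5 lower without 2KR spleen and 4 without WT spleen. Under total count scaling the sensing list had 5 higher and 5 lower, and it had 4 higher without 2KR eWAT and 1 without any other library or in DESeq2. The list of use had 2 higher without 2KR spleen, 3 higher without 2KR eWAT or in DESeq2, and 2 lower without WT spleen. For each of the 3 lists the macrophage, dendritic, B cell and fibroblast marker sums given above were higher in the same eWAT libraries, and their part was not tested.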

How the data were processed

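The 4 libraries, 1 for each tissue and genotype, were grouped by their titles. The deposited read counts are whole numbers per gene symbol, unscaled. The deposited readme, a general pipeline description, gives bcl2fastq 1.8.4, Tophat 2.1.0 on mm9 with 4 mismatches and up to 10 multiple hits, and 100 bp reads from poly-A selected RNA. Neither the counting tool nor its use of strand is stated there. Cufflinks 2.0.2 gave the deposited FPKM, which the authors list by gene locus and by transcript. The submitters' processing notes name mm8 beside mm9.

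Counts were scaled by trimmed mean of M-values (TMM) with edgeR 4.0.16 in R 4.3.3. The quasi-likelihood test compared tissues over the 16488 genes left by edgeR's filter on low counts, and calls were made at a Benjamini-Hochberg adjusted p under 0.05. The common genotype effect was fitted beside a tissue term, which left 1 residual degree of freedom. Alternatives used DESeq2 1.42.0, limma 3.58.1 on log2(FPKM + 1) and on log2(FPKM + 0.1), total count scaling, no filter, genotype as a further term in the tissue test, and each library left out. Ratios within a tissue or genotype used a prior count of 2, and counting intervals, made without it, are 95% exact conditional binomial intervals. Other steps used Python 3.11.15.

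In data simulated for the tissue test at a coefficient of variation of 0.2, the test called 99 of 100 genes set to a log2 change of 2, 43 of 100 set to 1, and 8 others among 16624 genes. The genotype test called 99, 35 and 10 others among 16551 genes. The changed genes were drawn from those with a mean above 100 reads, so these counts do not cover weakly expressed genes. In the real data the fitted coefficient of variation beyond counting error was 0.221 in the tissue test and 0.234 in the genotype test.

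The 8 transporters, the 8 wider lists and the markers were chosen with earlier results of these data known. Of each wider list, up to 4 genes called between tissues with a mean of at least 1 CPM were named by the size of their fold change, and up to 3 with a log2 ratio between genotypes in eWAT of at least 1 in size and at least 5 CPM in an eWAT library. Named outside these rules, after their values were seen, were Atf4, Asns, Cebpb, Ddit4, Phgdh, Psat1, Shmt2, Sfxn1, Slc7a7, Slc16a10 and Lrp3. The comparison of counts with FPKM, the light chain shares and the split of lists by level were also added after the data were seen.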

Additional observations from a re-analysis of the deposited data

Results flagged for a closer look

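Slc7a10 is listed because its genotype ratio had opposite signs in the 2 tissues, with a log2 ratio of 2KR over WT of 1.25 in eWAT and −0.81 in spleen, each with a counting interval clear of 0. Slc7a5 is listed for the same reason, with 0.39 in eWAT and −0.30 in spleen. The differences between tissues were not tested, since each group holds 1 library, and 13.8% of the 12307 genes compared had the same pattern.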

How the results depend on the processing

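The labels number no replicates. The tissue test called 5555 genes higher and 3833 lower in eWAT, and 4487 higher and 4008 lower with genotype as a further term, which pairs the libraries of a genotype and left 3 members called higher and 3 lower. Limma on FPKM gave 2640 higher with a pseudocount of 1, 2326 higher and 1846 lower with 0.1, and 1605 higher and 1161 lower with no filter. With 1 library left out, 3402 to 5491 genes were higher and 1909 to 5278 lower. Among other amino acid carriers 11 to 24 were higher and 2 to 9 lower, and 3 were lower under total count scaling. Among pathway genes 9 to 15 were higher and 10 to 30 lower. The common genotype effect, with 0 higher and 11 lower, gave 13 higher under total count scaling, 9 higher and 42 lower with no filter, and 2 lower in DESeq2. The lone library of a tissue was assumed to vary like the others.

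Of the members' ratios within a tissue or genotype, that of Slc3a2 for 2KR over WT in eWAT changed sign, to 0.13 under total count scaling and 0.16 by FPKM. The other 31 kept their sign or had a counting interval that included 0. Of these, 11 moved outside their counting interval under total count scaling and 14 by FPKM. Over all alternatives the fitted tissue log2 fold change was −6.37 to −4.28 for Slc7a10, 1.002 to 1.606 for Slc38a2, 0.36 to 0.72 for Slc3a2, −0.88 to −0.56 for Slc38a1, −0.93 to −0.54 for Slc7a6, −0.72 to −0.29 for Slc1a5 and −0.42 to 0.05 for Slc7a5. That of Slc7a11 was 3.50 to 4.02 on counts and 0.28 to 0.46 on FPKM, and the cause was not tested. The few reads of Slc7a10 in eWAT limit its ratios.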

Other observations

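Among the other amino acid carriers, a few differed between genotypes in eWAT by more than 2-fold, given as values of 1 library each. Slc7a2, a carrier of cationic amino acids that macrophages also express, stood at 10.9 CPM in 2KR eWAT and 2.95 CPM in WT eWAT (log2 ratio 1.83, counting interval 1.30 to 2.51). Slc43a1, a carrier of large neutral amino acids, stood at 14.7 and 5.63 CPM in 2KR and WT eWAT (1.36, 0.94 to 1.84), Slc7a3 at 6.03 and 2.31 CPM (1.33, 0.69 to 2.12) and Slc1a2 at 10.4 and 4.71 CPM (1.12, 0.64 to 1.66). The lysosomal carrier Slc15a3 went the other way, at 5.72 CPM in 2KR eWAT and 16.1 CPM in WT eWAT (−1.46, −1.95 to −1.04). Gldc stood at 14.1 and 5.63 CPM (1.30, 0.88 to 1.79). Of 37 carriers with at least 5 CPM in a library, 4 were at 1 or higher and 1 at −1 or lower, against 5.35% and 2.33% of all 12307 genes. Marker sums of macrophages, of mast and innate lymphoid cells and of others differed between the same 2 eWAT libraries, and their part in these values was not tested.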
